A study of Mus musculus with 72 samples.

Results

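Arrhythmic feeding is the paradigm of this series in which food intake was to have no daily rhythm. Its 24 h liver course was taken from 18 of 72 libraries, chosen by their labels: 6 zeitgeber times (ZT, hours after lights on) from ZT02 to ZT22 with 3 libraries each. Whether a gene's mRNA rises and falls over the day when feeding does not is the question these libraries address. All groups were livers of male wild-type C57BL/6J mice with a starting age of 43 to 49 days, kept in 12 h of light and 12 h of darkness with free access to water. The other paradigms, used here only beside the arrhythmic libraries, were arrhythmic feeding in mice that the labels describe as not fully adapted (called incompletely adapted below), ad libitum feeding and night-restricted feeding, with 18 libraries each. The portioning of food over the day, any record of intake and the criterion of adaptation: none is given in the sources used here. Nothing in the labels states that the 3 libraries of a time came from separate mice, so p-values measure the spread between these libraries, which may be technical.

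The mammalian clock is a feedback loop of transcription. BMAL1 (gene Arntl) pairs with CLOCK or NPAS2, binds E-boxes and drives the Per, Cry and Nr1d genes; PER and CRY proteins then block the activators, while the REV-ERB receptors (Nr1d1, Nr1d2) turn Arntl down at ROR elements. DBP, TEF and HLF activate genes through D-boxes, where NFIL3 represses. In liver this loop and the daily meal both time the mRNAs of sugar, fat and drug metabolism, and body temperature and adrenal hormones add further daily signals.

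Total counts of the arrhythmic libraries ran from 5628818 to 7806974 with a median of 6817450. The mitochondrial share of counts ran from 2.78% to 5.33%, and each library correlated with the others at a median r of 0.925 to 0.969 on the log2 scale across genes. None of total counts, mitochondrial share and the slope of log2 level on gene GC content passed a test of a 24 h course (two-sided permutation tests with 100000 resamples, p = 0.227, 0.152 and 0.421, and 0.341, 0.341 and 0.421 after adjustment over these 3). The labelled tissue was borne out by its markers. The 7 hepatocyte markers (Alb, Apoa1, Ttr, Trf, Cps1, Serpina1c, Fabp1) summed to between 39190 and 50340 CPM (counts scaled to a common library total) in every arrhythmic library. Of the 7, 0 passed the test of a 24 h course described below. Over all genes tested 3.65% passed it, so 0 of 7 is near that share. In whole liver, fewer cells of a type and less RNA per cell cannot be told apart.

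A cosine of 24 h period was fitted to the counts of these 18 libraries alone with edgeR's quasi-likelihood test, and a gene was called rhythmic when its Benjamini-Hochberg adjusted p was under 0.05. Under arrhythmic feeding 429 of 11766 tested genes were called, a background of 3.65%. The size of a rhythm is given as its range, the fitted log2 difference between its highest and lowest point, where 1 is a 2-fold difference. A fitted range cannot fall below 0, so noise alone gives a positive value, and the median range over all genes tested was 0.416. Among the called genes the median range was 1.14 with a median standard error (SE) of 0.214, and 274, 71 and 22 of them had ranges of at least 1, 2 and 3. Of the called genes 407 were protein coding. An unadjusted p under 0.05 was reached by 2191 genes, or 18.6% of those tested.

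The called genes peaked mostly around the change from light to darkness. Peaks fell in the dark phase (ZT12 to ZT24) for 278 genes (2.36% of those tested) and in the light phase for 151 (1.28%), so 64.8% of the calls were dark-phase genes. By windows of 4 h from ZT0, 46, 34, 71, 161, 47 and 70 genes peaked. The window from ZT12 to ZT16 was the fullest and that from ZT4 to ZT8 the emptiest, and a smaller second crest lay around lights on, with 43 genes at ZT22 to ZT24 and 32 at ZT0 to ZT2. The median SE of a peak time was 0.747 h. Calls depended on level: 114 of 5318 genes under a mean of 10 CPM were called (2.14%), 218 of 4987 from 10 to 100 CPM (4.37%) and 97 of 1461 over 100 CPM (6.64%), while the median SE of the range over all genes of these classes was 0.327, 0.200 and 0.179. No gene passed the edgeR test for an added 12 h term (background 0.0%; smallest adjusted p 0.995), and 264 genes had an unadjusted p under 0.05 there (2.24%).

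**Figure D1:**
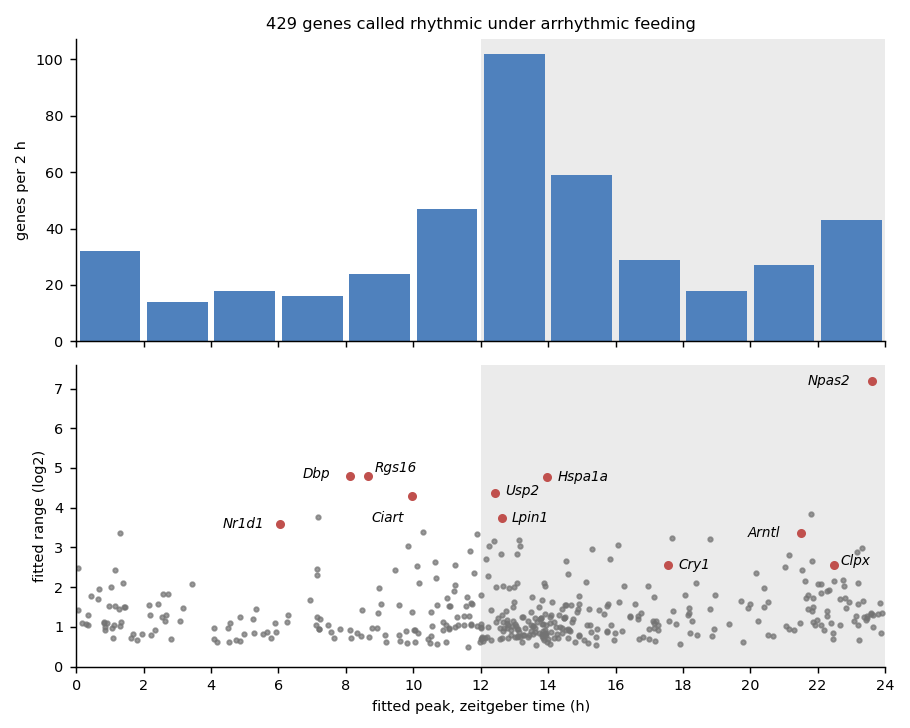
Upper panel: number of called genes per 2 h of fitted peak time (x axis, zeitgeber time in hours) under arrhythmic feeding, with the dark phase shaded. Lower panel: the range of each called gene (y axis, log2 peak-to-trough difference) against its peak time, with the named genes in red. The bin from ZT12 to ZT14 holds 102 of 429 genes, and Npas2, at 0 counts at its lowest time, has the largest fitted range, 7.20 (2.77 by limma on log2 CPM).

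Leaving out 1 library at a time moved the number of called genes from 429 to between 285 (without ZT14 replicate 2, 282 of them among the 429) and 505 (without ZT10 replicate 3, 390 among the 429). Of the 429, 226 (52.7%) were called in every one of these 18 fits. These 226 peaked in the dark phase in 66.4% of cases and had a median range of 1.40. With the GC slope of each library as a covariate 653 genes were called, 412 of them among the 429, and all 226 were. Of the 83 called genes named here, 14 were not called without the 3 arrhythmic libraries whose GC slope lay beyond 0.25 on either side, an alternative chosen after seeing the data: Ass1, Bcl6, Cdkn1a, Cirbp, Cyp1a2, Ddit4, Hlf, Hmgcs1, Insig1, Mid1ip1, Nfil3, Rbm3, Tra2a and Ugp2 (edgeR adjusted p from 0.0524 for Mid1ip1 to 0.194 for Ddit4). With the GC covariate Cdkn1a and Ddit4 of these were not called either (edgeR adjusted p = 0.0595 and 0.0701), while the others were. A test of any difference among the 6 times, with no shape assumed, called 159 genes, of which 153 were among the 429.

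The start regions of 5 clock genes are shown because each carries a letter match to an element of the loop described above and because their rhythms open the results. Sequences are RefSeq windows of GRCm38.p6, written 5′ to 3′ on the gene's strand, in lower case with matches in capitals. E-boxes were searched as CACGTG, D-boxes as TTATGNAA and ROR elements as TAGGTCA, on both strands. The Nfil3 match is the ROR element read from the other strand. In order, the windows are chr3:95882229-95882478 (minus strand), chr11:69098699-69098948 (plus strand), chr4:151044666-151044915 (minus strand), chr13:52981040-52981289 (minus strand) and chr7:113207530-113207559 (plus strand).

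Ciart: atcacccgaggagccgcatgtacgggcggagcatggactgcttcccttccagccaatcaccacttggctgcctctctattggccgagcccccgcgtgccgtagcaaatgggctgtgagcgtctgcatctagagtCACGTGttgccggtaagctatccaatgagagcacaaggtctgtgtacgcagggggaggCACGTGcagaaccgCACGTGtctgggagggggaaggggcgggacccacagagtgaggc
Per1: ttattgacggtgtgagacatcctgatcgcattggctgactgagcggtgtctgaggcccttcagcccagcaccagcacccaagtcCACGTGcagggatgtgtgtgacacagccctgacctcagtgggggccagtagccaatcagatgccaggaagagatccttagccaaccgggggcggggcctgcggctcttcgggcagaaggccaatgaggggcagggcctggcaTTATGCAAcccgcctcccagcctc
Per3: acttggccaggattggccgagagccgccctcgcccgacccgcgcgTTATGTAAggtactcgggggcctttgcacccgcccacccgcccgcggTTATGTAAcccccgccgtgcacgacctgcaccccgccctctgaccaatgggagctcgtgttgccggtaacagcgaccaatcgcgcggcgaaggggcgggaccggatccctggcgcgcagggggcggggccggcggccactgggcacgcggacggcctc
Nfil3: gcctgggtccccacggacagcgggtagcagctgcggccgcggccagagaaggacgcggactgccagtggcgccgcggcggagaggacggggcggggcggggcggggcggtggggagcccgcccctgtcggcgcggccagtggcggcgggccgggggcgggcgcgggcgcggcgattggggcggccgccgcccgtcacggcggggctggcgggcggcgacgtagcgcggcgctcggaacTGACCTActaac
Arntl: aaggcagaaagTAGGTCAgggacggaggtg

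Windows of 300 bases (250 before and 50 after the start) were matched for 317 of the 429 called and 8745 of the 11766 tested genes, out of 32851 windows in the table. A gene was counted when any of its windows held a match. An E-box was found for 17.0% of the called genes, 12.0% of all tested genes and 8.09% of all 27025 genes with a window. The share was 25.5% of the 55 matched genes that peaked from ZT8 to ZT12 and 18.3% of the 120 that peaked from ZT12 to ZT16. It was 10% of the 50 that peaked from ZT20 to ZT24. For each element the window named first had its highest share and was picked from these same values. D-boxes were found for 5.36% of called, 2.9% of tested and 3.99% of all genes. They were found for 10.9% of the ZT8 to ZT12 genes (6 of 55) and 0 of the 35 that peaked from ZT16 to ZT20. A ROR element was found for 3.47% of called, 2.61% of tested and 2.97% of all genes. It was found for 8% of the genes that peaked from ZT20 to ZT24 (4 of 50) and 0 of the 55 from ZT8 to ZT12. Other elements searched were the heat shock element (0.631% of called and 0.56% of tested genes) and the sterol element (2.52% and 1.53%). The cAMP element was found for 2.84% of called and 3.56% of tested genes. A match is a run of letters only, with no measurement of binding.

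Activators of the loop come first. Arntl, Clock and Npas2 were called, against a background of 3.65% of all genes tested. That share is also the background of each list count below. Arntl, which encodes BMAL1, read 2.88, 6.27 and 6.58 CPM at ZT02, 0.152, 0.327 and 2.05 CPM at ZT06, 0.338, 0.968 and 1.98 CPM at ZT10, 0.768, 1.78 and 3.19 CPM at ZT14, 3.80, 3.98 and 5.58 CPM at ZT18, and 4.76, 11.1 and 13.8 CPM at ZT22. It was high around the end of the night and low at ZT06 and ZT10, and the 3 libraries at its highest time lay above all 3 at its lowest. Here and below, those times were picked from the same values. A lack of overlap is therefore a description and not a further test. Its range was 3.35 ± 0.55 with a peak at ZT21.5 ± 0.587 h (edgeR adjusted p = 0.00195). Clock read 24.9, 25.5 and 35.5 CPM at ZT22 and 10.3, 10.7 and 17.9 CPM at ZT10, again without overlap, with a range of 1.04 ± 0.18 and a peak at ZT23.2 (adjusted p = 0.0046).

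Npas2, the partner of BMAL1 that can stand in for CLOCK, was low in all libraries, with 1.79, 2.42 and 3.26 CPM at ZT22 and 0 counts in all 3 libraries at ZT14. Against a floor of 3 counts over those 3 libraries, its ZT22 level was at least 16.9-fold higher (peak ZT23.6, adjusted p = 0.0002). The fitted range of 7.20 ± 1.27 of such a gene depends on how 0 counts are handled. Rora, a nuclear receptor that activates Arntl, was not called (range 0.10 ± 0.35, adjusted p = 0.981), and its libraries at the highest and lowest times overlapped.

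Of the 10 repressors 8 were called, with a median range over the 10 of 2.95 against 0.416 over all genes tested. The REV-ERB genes came first in the day. Nr1d1 read 22.9, 26.1 and 53.2 CPM at ZT06 and 2.06, 2.94 and 3.21 CPM at ZT18, and Nr1d2 read 165, 209.6 and 282 CPM at ZT10 and 38.6, 53.0 and 75.5 CPM at ZT22. Daytime libraries were high and night libraries low for both, with no overlap between those times, and their ranges were 3.58 ± 0.41 (peak ZT6.04, adjusted p = 0.000122) and 1.97 ± 0.21 (peak ZT8.99, adjusted p = 7.60e-05). Nr1d1 overlaps Thra on the other strand, and since the strand setting of the counting is not given in the sources used here, reads of the pair cannot be told apart.

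The Per genes followed towards dusk. Per1 read 3.42, 3.43 and 6.62 CPM at ZT02, 5.95, 9.43 and 14.5 CPM at ZT06, 22.8, 27.0 and 31.8 CPM at ZT10, 19.3, 27.5 and 28.6 CPM at ZT14, 7.51, 9.20 and 11.5 CPM at ZT18, and 0.968, 3.85 and 5.58 CPM at ZT22. Its libraries were high at ZT10 and ZT14 and low at ZT22 and ZT02, and no library at the highest time fell among those at the lowest (range 3.34 ± 0.31, peak ZT11.9 ± 0.350 h, adjusted p = 1.22e-05). Per2 had 18.6, 34.9 and 43.1 CPM at ZT10 and 5.28, 7.73 and 9.35 CPM at ZT02, and Per3 had 16.2, 23.5 and 32.3 CPM at ZT10 and 1.22, 2.10 and 2.75 CPM at ZT22. Neither gene's high and low libraries overlapped, and they peaked at ZT11.8 (range 2.36 ± 0.34, adjusted p = 0.00151) and ZT10.3 (range 3.40 ± 0.42, adjusted p = 0.000269). The windows printed above hold an E-box and a D-box for Per1 and D-boxes for Per3.

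Among the other repressors, Bhlhe41 (DEC2) peaked at ZT7.19 and Ciart, a repressor of BMAL1 with 3 E-boxes in its window, at ZT9.95. Both are scarce: Bhlhe41 had 136 counts over the 3 libraries of its highest time and 10 over those of its lowest, and Ciart 54 and 4. Their ranges were 3.77 ± 0.40 (adjusted p = 2.39e-05) and 4.30 ± 0.75 (adjusted p = 0.002). Cry1 peaked last, in the middle of the night, with 15.9, 27.9 and 36.6 CPM at ZT18 and 3.66, 4.92 and 7.35 CPM at ZT06. Its night libraries all exceeded its day libraries at those times, and its range was 2.55 ± 0.29 with a peak at ZT17.6 (adjusted p = 9.15e-05). Cry2 was not called (range 0.73 ± 0.18, adjusted p = 0.0675), although without ZT02 replicate 2 its adjusted p was 0.00963, and Bhlhe40 (DEC1) was not called either (range 0.88 ± 0.31, adjusted p = 0.231). With the GC slope as a covariate both were called (adjusted p = 0.0447 and 0.0391), and so were all 10 repressors.

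All 4 D-box factors were called, 3 with a daytime peak and Nfil3 with a night peak, and their median range was 1.85. Hlf and Nfil3 were not called without the libraries of extreme GC slope (adjusted p = 0.0632 and 0.064). Dbp read 4.72, 13.1 and 31.5 CPM at ZT02, 43.6, 45.4 and 123 CPM at ZT06, 37.4, 50.8 and 90.1 CPM at ZT10, 8.53, 12.0 and 20.9 CPM at ZT14, 3.80, 4.42 and 5.89 CPM at ZT18, and 2.47, 2.85 and 2.90 CPM at ZT22. The day libraries at ZT06 and ZT10 were high, those at ZT18 and ZT22 low, and the highest and lowest times did not overlap. Its range was 4.79 ± 0.47 with a peak at ZT8.12 ± 0.356 h (adjusted p = 2.93e-05); Dbp overlaps Sphk2 on the other strand, and reads of the pair cannot be told apart. Tef read 577, 715 and 729 CPM at ZT10 and 169, 174 and 190.3 CPM at ZT22, with a range of 2.05 ± 0.20 and a peak at ZT11.2 (adjusted p = 2.93e-05). Hlf had a range of 0.59 ± 0.12 and a peak at ZT10.5 (adjusted p = 0.0135), and lost its call in 2 of the 18 fits that leave out a library (adjusted p up to 0.061, without ZT10 replicate 1). Nfil3, which represses at the same element, peaked at ZT20.5 with 16.3, 18.4 and 30.0 CPM at ZT22 and 3.54, 7.11 and 7.75 CPM at ZT10 (range 1.64 ± 0.30, adjusted p = 0.00956). Its high and low libraries did not overlap, and it peaked about opposite to Dbp.

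**Figure D2:**
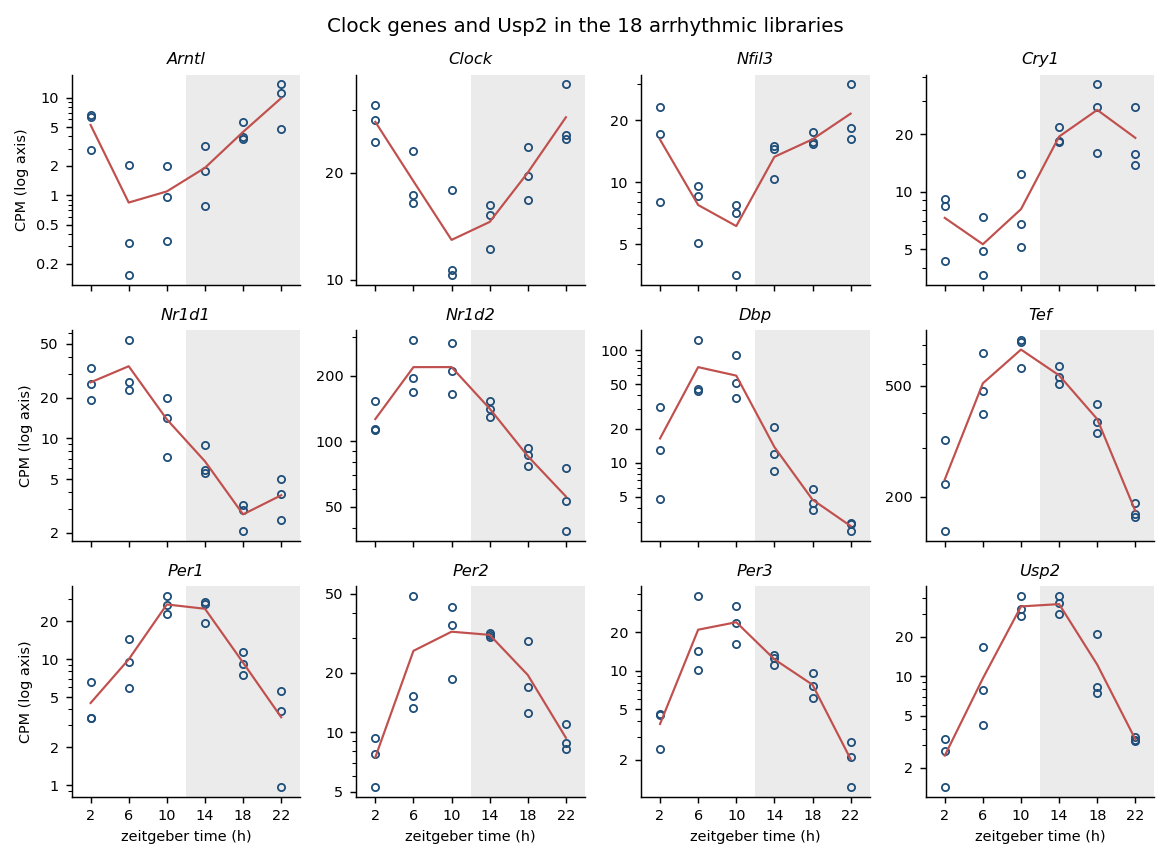
CPM (y axes, log scale) of 11 clock genes and the output gene Usp2 in each of the 18 arrhythmic libraries (open circles) against zeitgeber time in hours (x axes), with the mean of the 3 libraries of each time joined by a line and the dark phase shaded. Peaks move from Nr1d1 (ZT6.04) through Dbp (ZT8.12) and Per1 (ZT11.9) to Cry1 (ZT17.6), Nfil3 (ZT20.5) and Arntl (ZT21.5).

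Of 11 clock-controlled outputs 9 were called, against 3.65% of all genes tested: Usp2, Noct, Wee1, Lgalsl, Cdkn1a, Avpr1a, Por, Tspan4 and St3gal5. All 9 had a dark-phase peak, from ZT12.2 to ZT22.3, as did 64.8% of all calls. The list had a median range of 1.99. It was chosen with earlier results of these data known, so its count is a description only. Usp2, a deubiquitinase (chr9:44067021-44095627, + strand, GRCm38), had the smallest p of all genes tested. It read 30.0, 36.1 and 40.9 CPM at ZT14 and 1.43, 2.71 and 3.31 CPM at ZT02, so that dusk libraries were high and early-day libraries low without overlap (range 4.37 ± 0.35, peak ZT12.4 ± 0.289 h, adjusted p = 3.51e-06). Por (chr5:135670033-135735326, + strand), the electron donor of the cytochrome P450 enzymes, read 293, 409 and 464 CPM at ZT14 and 110.5, 115 and 131 CPM at ZT02 with a range of 1.99 ± 0.17 and a peak at ZT13.0 (adjusted p = 5.18e-06). St3gal5, a sialyltransferase of ganglioside synthesis, had a range of 2.04 ± 0.26 at ZT12.7 (adjusted p = 0.000193). Lgalsl, a galectin-like gene, peaked later, at ZT20.0, with a range of 1.56 ± 0.18 (adjusted p = 7.60e-05). Of the 7 clock kinases and ligases 1 was called, and it was Usp2, which both lists hold. The median range of the 7 was 0.167.

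Beyond the activators, repressors and D-box factors, the rhythmic genes of smallest p with a mean of at least 10 CPM were, in the light phase, Rgs16, Pfkfb3, Pcsk4, Lpin2, Ndrg1, Mtss1, Etnk2, Upp2, Slc38a3 and Fam102a. In the dark phase they were Usp2, Por, Clpx, Mknk2, Lgalsl, Fam89a, Dtx4, Nup62, Chka and Fbxo31. Clpx (chr9:65294260-65330658, + strand), the unfoldase of the mitochondrial ClpXP protease, read 34.8, 54.7 and 66.0 CPM at ZT22 and 6.08, 7.42 and 8.10 CPM at ZT10. Late-night libraries stood above all at ZT10, with a range of 2.55 ± 0.23 and a peak at ZT22.5 (adjusted p = 9.15e-06). Mknk2, a kinase of the translation factor eIF4E, had 104, 106 and 123 CPM at ZT14 and 25.9, 30.2 and 40.0 CPM at ZT02 (range 1.97 ± 0.21, peak ZT12.8, adjusted p = 2.93e-05). Dtx4, an E3 ubiquitin ligase of the Notch pathway, peaked at ZT22.1 with a range of 1.85 ± 0.21, and Fam89a at ZT22.1 with 2.07 ± 0.24. Nup62, a nuclear pore protein, had a range of 1.26 ± 0.15 at ZT16.4; it overlaps the far more abundant Atf5 on the other strand, and reads of the pair cannot be told apart. Fbxo31, an F-box protein, had a range of 1.29 ± 0.16 at ZT14.1.

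In the light-phase group, Pcsk4, a proprotein convertase, read 16.5, 23.1 and 34.6 CPM at ZT10 and 2.89, 3.87 and 6.53 CPM at ZT22 (range 2.54 ± 0.29, peak ZT10.1, adjusted p = 7.60e-05). Afternoon libraries were high and late-night libraries low, with no overlap. Ndrg1 peaked just after lights on, at ZT0.662, with 24.2, 44.5 and 60.8 CPM at ZT02 and 10.1, 10.6 and 12.3 CPM at ZT10 (range 1.96 ± 0.24, adjusted p = 0.0002). Slc38a3, a glutamine transporter, read 1717, 1813 and 3232 CPM at ZT10 and 675, 703 and 1128 CPM at ZT22 (range 1.52 ± 0.22, peak ZT11.1). Mtss1, an actin-binding protein, and Fam102a had ranges of 1.52 ± 0.19 and 1.27 ± 0.18 and peaks at ZT11.1 and ZT11.6.

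Of 17 heat shock proteins 8 were called (Hspa1a, Hspa1b, Hsph1, Dnajb1, Hspa8, Ahsa1, Fkbp4, Hspb1), against 3.65% of all genes tested, and their list had a median range of 0.866. All 8 had a dark-phase peak, as did 64.8% of all calls. Without the libraries of extreme GC slope 4 of the 17 were called. Hspa8, the constitutive HSP70, read 304, 315 and 393 CPM at ZT14 and 131, 158 and 163 CPM at ZT02. All 3 libraries at ZT14 exceeded those at its lowest time (range 1.23 ± 0.21, peak ZT14.5, adjusted p = 0.00243). Hsph1, a nucleotide exchange factor of HSP70, read 77.1, 82.5 and 114 CPM at ZT14 and 31.2, 33.5 and 39.0 CPM at ZT06 (range 1.32 ± 0.22, peak ZT15.7, adjusted p = 0.00255). Hspa1a, the inducible HSP70, had 169 counts over the 3 libraries at ZT14 and 6 over those at ZT02 (fitted range 4.78 ± 0.90, adjusted p = 0.00142). Hspa1a and Hspa1b are near-identical copies, so which of the pair the reads came from is uncertain and their calls may not be separate. Hspb1, a small heat shock protein, peaked later, at ZT20.4 (range 1.50 ± 0.25, adjusted p = 0.00321). The count of the list fell to 5 without any 1 of ZT02 replicate 1, ZT06 replicate 2, ZT10 replicate 1, ZT18 replicate 1, or any replicate of ZT14 or ZT22.

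Both cold-inducible RNA-binding proteins were called, with ranges near 1 and different peaks. Neither call held without the libraries of extreme GC slope (adjusted p = 0.0568 for Cirbp and 0.0546 for Rbm3). With the GC slope as a covariate of all 18 libraries both were called (adjusted p = 0.000691 and 0.00492). Cirbp read 38.8, 42.0 and 43.8 CPM at ZT06 and 15.9, 16.3 and 18.2 CPM at ZT14, so the morning libraries were high and those at ZT14 low, without overlap (range 0.97 ± 0.19, peak ZT4.50, adjusted p = 0.0114). Rbm3 read 22.4, 27.7 and 42.6 CPM at ZT14 and 17.1, 19.4 and 20.8 CPM at ZT22 (range 0.97 ± 0.18, peak ZT12.8, adjusted p = 0.00819). Of 13 tested glucocorticoid-responsive genes 3 were called, with a median range over the 13 of 1.57. Tsc22d3 (GILZ), a classical target of the glucocorticoid receptor, read 117, 136 and 145 CPM at ZT14 and 34.5, 45.1 and 62.3 CPM at ZT06, with ZT14 high and no overlap (range 1.57 ± 0.22, peak ZT14.9, adjusted p = 0.000651). Fkbp5, a co-chaperone of that receptor, had a range of 2.10 ± 0.40 at ZT13.9 (adjusted p = 0.00724), and the third was Per1. Without ZT22 replicate 1, 5 genes of this list were called.

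Lipid genes gave a mixed picture. Of 21 lipogenic genes 4 were called (Acacb, Thrsp, Mid1ip1, Dgat2), with a median range over the 21 of 0.836. Thrsp (Spot 14), a nuclear protein tied to fatty acid synthesis, read 9140.0, 9742 and 14570.0 CPM at ZT14 and 956, 1230.0 and 1836 CPM at ZT22. Its ZT14 libraries were far above those of late night, without overlap (range 3.03 ± 0.39, peak ZT12.2, adjusted p = 0.000378). Dgat2, the last enzyme of triglyceride synthesis, had a range of 0.93 ± 0.18 at ZT12.9 (adjusted p = 0.00877). Acacb, the acetyl-CoA carboxylase of mitochondria, read 128, 131 and 144 CPM at ZT14 and 39.9, 61.0 and 73.6 CPM at ZT02 (range 1.25 ± 0.27, peak ZT14.5, adjusted p = 0.0197) and lost its call in 4 of 18 leave-out fits (adjusted p up to 0.0757, without ZT14 replicate 2). Mid1ip1, a Spot 14 relative that promotes carboxylase polymerisation, peaked in daytime, at ZT7.82, with a range of 0.94 ± 0.19 (adjusted p = 0.0146).

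Phospholipid synthesis held 4 called genes of 14 tested (Lpin1, Lpin2, Chka, Etnk2), and the median range of the 14 was 0.555. Lpin1, a phosphatidate phosphatase, read 302, 573 and 868 CPM at ZT14 and 32.4, 42.9 and 49.0 CPM at ZT22, so ZT14 was high in all 3 libraries and late night low (range 3.73 ± 0.48, peak ZT12.6, adjusted p = 0.000312). Its relative Lpin2 peaked at ZT11.7 with a range of 1.61 ± 0.20 (adjusted p = 0.000184). Chka, choline kinase, ran the other way, with 81.2, 107 and 171 CPM at ZT22 and 8.27, 14.6 and 15.5 CPM at ZT10 (range 2.65 ± 0.31, peak ZT21.8, adjusted p = 0.00013). Etnk2, an ethanolamine kinase, peaked at ZT11.5 with a range of 1.27 ± 0.17 (adjusted p = 0.000323).

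Of 25 genes of cholesterol synthesis and uptake 8 were called, among them Insig1, Insig2, Hmgcs1, Pmvk, Msmo1 and Hsd17b7, with a median range over the 25 of 0.566, and their peaks were spread from ZT2.63 to ZT21.9. Insig2, which holds the sterol sensor SCAP in the endoplasmic reticulum, read 993, 1570.0 and 2039 CPM at ZT22 and 238, 417 and 429.7 CPM at ZT10. Night libraries were high and ZT10 libraries low, without overlap (range 1.73 ± 0.28, peak ZT21.9, adjusted p = 0.00481). Hmgcs1, an early enzyme of the pathway, read 679, 758 and 864 CPM at ZT02 and 264, 267 and 317 CPM at ZT14 (range 1.14 ± 0.23, peak ZT2.63, adjusted p = 0.0165) and missed the threshold in 1 leave-out fit (adjusted p 0.0519, without ZT14 replicate 3). Pmvk, phosphomevalonate kinase, peaked at ZT14.7 (range 1.19 ± 0.23, adjusted p = 0.00856) and Hsd17b7, a sterol reductase, at ZT9.79 (range 0.90 ± 0.16, adjusted p = 0.00737). The list's count fell to 4 without ZT22 replicate 2 and to 5 without any 1 of ZT02 replicate 1, ZT10 replicate 2, ZT14 replicates 2 and 3 or ZT22 replicates 1 and 3.

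Of 18 genes of glycolysis and glycogen 8 were called, among them Slc2a2, Pfkfb1, Pfkfb3, Ppp1r3b, Ppp1r3c, Ugp2 and Rgs16, with a median range over the 18 of 0.766. Rgs16 had the largest swing, with 26.8, 58.1 and 83.7 CPM at ZT10 and 0.876, 1.24 and 3.54 CPM at ZT18. It is a brake on G protein signalling that the list holds, and not an enzyme of glycolysis or glycogen. Its afternoon libraries stood far above its ZT18 libraries (range 4.81 ± 0.45, peak ZT8.65, adjusted p = 1.61e-05). Pfkfb3, which makes the activator of phosphofructokinase, had a range of 2.62 ± 0.29 at ZT10.7 (adjusted p = 7.60e-05). The glycogen genes were spread over the day: Ugp2, the source of UDP-glucose, peaked at ZT6.25 (range 1.12 ± 0.21, adjusted p = 0.00924), and Ppp1r3c, a glycogen-targeting subunit of protein phosphatase 1, at ZT22.3. Ppp1r3c read 389, 424 and 468 CPM at ZT22 and 46.1, 81.7 and 104 CPM at ZT10, with late night high and ZT10 low and no overlap (range 1.90 ± 0.31, adjusted p = 0.00426). The count of this list fell to 4 without ZT14 replicate 1 and to 5 without ZT02 replicate 1 or ZT14 replicates 2 or 3.

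Gluconeogenic and fasting genes gave 3 calls of 14 (Foxo1, Foxo3, Slc37a4), with a median range over the 14 of 0.645. Foxo1, a transcription factor that insulin signalling keeps out of the nucleus, read 79.8, 83.6 and 85.6 CPM at ZT14 and 37.6, 46.8 and 56.5 CPM at ZT22 (range 1.06 ± 0.17, peak ZT13.0, adjusted p = 0.00169). Its ZT14 libraries were high, without overlap, and Foxo3 peaked at ZT11.7 with a range of 1.07 ± 0.17 (adjusted p = 0.00163). Slc37a4, the glucose 6-phosphate transporter, had a range of 0.98 ± 0.21 at ZT12.0 (adjusted p = 0.0212) but lost its call in 8 of 18 leave-out fits (adjusted p up to 0.078, without ZT14 replicate 2). PPARA targets and ketogenic genes gave 3 calls of 19, with a median range of 0.433. Angptl4, an inhibitor of lipoprotein lipase, read 199.6, 327 and 349 CPM at ZT14 and 64.6, 74.8 and 88.3 CPM at ZT02, with ZT14 high and no overlap (range 2.11 ± 0.35, peak ZT13.1, adjusted p = 0.00281). Acot1, an acyl-CoA thioesterase, and Plin5, a lipid droplet protein, both peaked at ZT16.7, with ranges of 1.20 ± 0.20 (adjusted p = 0.00312) and 1.27 ± 0.25 (adjusted p = 0.0116).

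Xenobiotic metabolism held 4 called genes of 18 tested, with peaks between ZT11.7 and ZT13.8 and a median range over the 18 of 0.628. Besides Por, they included Nr1i2 (PXR), the receptor that turns on drug-metabolising enzymes, which read 236, 288 and 357 CPM at ZT14 and 138, 139 and 155 CPM at ZT02 without overlap (range 1.21 ± 0.19, peak ZT13.8, adjusted p = 0.00172). Upp2, a uridine phosphorylase that the list also holds, read 1565, 2406 and 2875 CPM at ZT10 and 211, 264 and 524 CPM at ZT02, again apart (range 2.91 ± 0.38, peak ZT11.7, adjusted p = 0.000496). Cyp1a2, a P450 enzyme of the pericentral zone, had a range of 0.90 ± 0.21 at ZT12.7 (adjusted p = 0.0427), and this call was lost in 13 of 18 leave-out fits (adjusted p up to 0.123, without ZT14 replicate 1). Amino acid catabolism and the urea cycle gave 3 calls of 21, with a median range of 0.543. Asl, the urea cycle lyase, read 406, 573 and 761 CPM at ZT14 and 181, 221 and 248 CPM at ZT06, with ZT14 high and no overlap (range 1.54 ± 0.24, peak ZT14.7, adjusted p = 0.00168). Ahcy, which clears S-adenosylhomocysteine, had a range of 0.86 ± 0.13 at ZT15.8 (adjusted p = 0.00118). Ass1, the step before Asl, had a range of 0.94 ± 0.22 at ZT17.0 (adjusted p = 0.0439), its libraries at the highest and lowest times overlapped, and its call was lost in 13 of 18 leave-out fits (adjusted p up to 0.136, without ZT18 replicate 3).

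Smaller lists held 1 or 2 called genes each. Among 20 genes of the endoplasmic reticulum chaperones these were Herpud1, of the degradation pathway, with 829, 889 and 953 CPM at ZT14 and 334, 371 and 400.3 CPM at ZT22 (range 1.42 ± 0.18, peak ZT12.3, adjusted p = 0.000193), and the chaperone Hyou1, which peaked at ZT4.10 (range 0.98 ± 0.18, adjusted p = 0.00737). Of 10 integrated stress response genes Trib3, a pseudokinase, peaked at ZT5.34 (range 1.44 ± 0.24, adjusted p = 0.00315) and Ddit4, an inhibitor of mTORC1, at ZT16.6 (range 1.56 ± 0.35, adjusted p = 0.0387); Ddit4 lost its call in 13 of 18 leave-out fits (adjusted p up to 0.0979, without ZT14 replicate 2). Autophagy gave Bnip3, a mitophagy receptor, at ZT13.8 and the kinase Ulk1 at ZT8.12, of 10 genes, with ranges of 1.08 ± 0.17 and 0.92 ± 0.19. Splicing factors gave Srsf3 at ZT7.20 and Tra2a at ZT18.2, of 10 genes, with ranges of 0.93 ± 0.17 and 0.85 ± 0.19, and Tra2a lost its call in 7 of 18 leave-out fits (adjusted p up to 0.0737, without ZT18 replicate 1).

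Nmrk1, a nicotinamide riboside kinase, was the called gene of 8 in NAD synthesis and read 11.5, 15.4 and 15.7 CPM at ZT10 and 3.31, 4.87 and 5.85 CPM at ZT02 (range 1.80 ± 0.26, peak ZT12.0, adjusted p = 0.00067). Tubb2a, a beta-tubulin, was the called gene of 12 tubulins and actins, with 466, 563 and 576 CPM at ZT22 and 69.5, 118 and 222 CPM at ZT10 (range 1.65 ± 0.28, peak ZT23.3, adjusted p = 0.00538); 3 of these 12 were called without ZT18 replicate 1 and 2 without ZT02 replicate 2 or ZT22 replicate 3. Of 7 tested cell cycle genes Wee1, a kinase that holds back mitosis, peaked at ZT12.2 (range 2.70 ± 0.37, adjusted p = 0.000897) and Cdkn1a (p21) at ZT17.7 (range 3.23 ± 0.66, adjusted p = 0.0319). Cdkn1a lost its call in 10 of 18 leave-out fits (adjusted p up to 0.0811, without ZT06 replicate 1). Bcl6, a repressor tied to growth hormone signalling, was the called gene of 11 in that axis (range 3.17 ± 0.60, peak ZT12.4, adjusted p = 0.0244) and lost its call in 7 of 18 leave-out fits (adjusted p up to 0.0958, without ZT14 replicate 2), while 2 genes of the axis were called without ZT18 replicate 2.

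No member was called in 6 lists: bile acid synthesis and transport (0 of 14), ribosome biogenesis (0 of 17), the respiratory chain (0 of 18), heme and iron (0 of 13), immediate early genes (0 of 6 tested) and the acute phase (0 of 11). Over all genes tested 3.65% were called, so 0 calls in lists this small, or among the markers below, is near that share. With unadjusted p under 0.05, the edgeR test counted 6, 2, 4, 5, 2 and 4 of their members, against 18.6% of all genes tested. The DESeq2 test called 2, 0, 1, 3, 1 and 1 of them, and 753 of the 11766 genes tested, more than edgeR did. Of the bile acid list 1 gene was called without ZT10 replicate 1 or ZT22 replicate 1, and of heme and iron 2 without ZT10 replicate 1 and 1 without ZT02 replicate 2. Their median ranges were 0.536, 0.320, 0.354, 0.524, 0.689 and 0.518. Among markers of other cell types, 0 of 8 Kupffer cell, 0 of 7 stellate cell, 0 of 5 erythroid and 1 of 7 endothelial markers (Vcam1) were called. Their summed levels ran from 594 to 1221 CPM, 99.0 to 194 CPM, 1174 to 6388 CPM and 250.2 to 337 CPM over the arrhythmic libraries. Of zonal hepatocyte markers, 2 of 6 pericentral (Cyp1a2, Lgr5) and 1 of 7 periportal (Ass1) ones were called, and 0 of the pericentral ones without ZT02 replicate 1, ZT02 replicate 2 or ZT14 replicate 2. Of the 2 tested neutrophil markers 1 was called, a call lost in 12 of 18 leave-out fits, and their list summed to 1.07 to 7.48 CPM with Ly6g at 0, while pancreatic acinar markers summed to at most 27.2 CPM. The acinar sum had a median of 0 and its highest time mean at ZT02 (9.99 CPM), and it reached at most 0.993 CPM in the other paradigms, where the erythroid sum reached at most 4294 CPM. The part of these cells in the rhythms above was not tested.

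**Figure D3:**
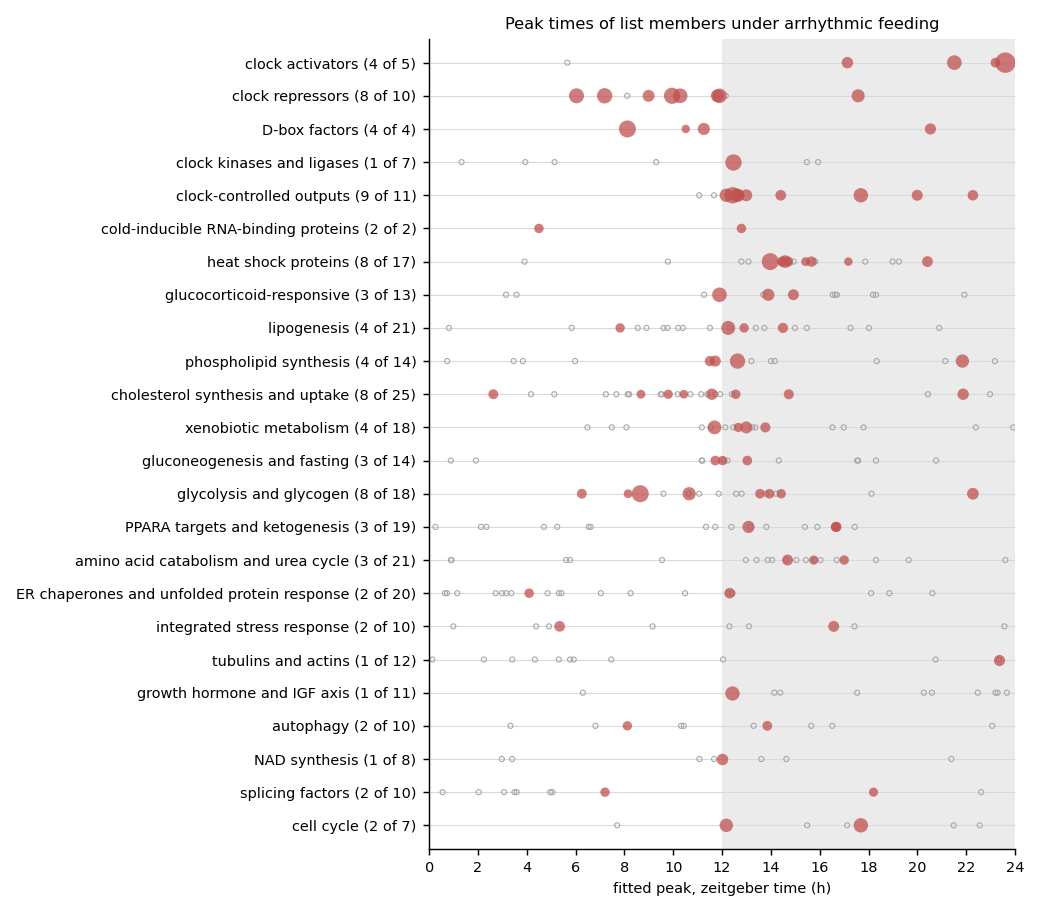
Fitted peak time (x axis, zeitgeber time in hours, dark phase shaded) of every tested member of the 24 gene lists with a called member under arrhythmic feeding. Red discs are called genes, sized by range, open grey circles are members that were not called, and the numbers give called of tested. The 8 called heat shock genes and the 9 called outputs lie in the dark phase, and 7 of 8 called repressors in the light phase.

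The genes chosen here were then looked at in the other paradigms, each fitted alone. Among the 427 genes tested in both, 179 (41.9%) were also called in the incompletely adapted libraries, where 2.81% of genes tested in both were called, and 322 (75.4%) had an unadjusted p under 0.05 there, against 13.1%. Fitted peaks of 403 of the 427 (94.4%) lay within 4 h of the arrhythmic ones, compared with 45.3% of all 11628 genes tested in both, and the median shift was -0.751 h, with arrhythmic peaks earlier, against -2.64 h over all genes tested in both. The median ranges of the 427 were 1.13 under arrhythmic and 0.972 under incompletely adapted feeding. The arrhythmic values chose these genes, so the larger arrhythmic range is a description only.

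Under ad libitum feeding 249 of 429 (58.0%) were called, against 7.43% of genes tested in both, and 350 (81.6%) peaked within 4 h of their arrhythmic time, against 38.1% of all genes. Under night-restricted feeding 261 of 425 (61.4%) were called, against 16.1%, and 339 (79.8%) peaked within 4 h, against 36.7%. Of the 6 windows, genes that peaked from ZT16 to ZT20 under arrhythmic feeding had the largest median shift, -3.34 h against ad libitum and -2.66 h against night-restricted feeding (1.67 h and -0.0747 h over all genes tested in both). Within 4 h of their arrhythmic time lay 28 of these 47 genes under ad libitum and 36 (76.6%) under night-restricted feeding, where the share was lowest in the window from ZT12 to ZT16 (111 of 160, 69.4%). Genes of the window from ZT20 to ZT24 had the smallest median shift against night-restricted feeding, -0.114 h. Peaks over 6 h apart were counted for 33 genes against ad libitum, 51 against night-restricted and 1 against incompletely adapted feeding. In all 4 paradigms 138 of the 429 were called, while 113 were called under arrhythmic feeding alone. That last count comes from thresholds, and 37 of the 113 had no unadjusted p under 0.05 in any other paradigm.

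**Figure D4:**
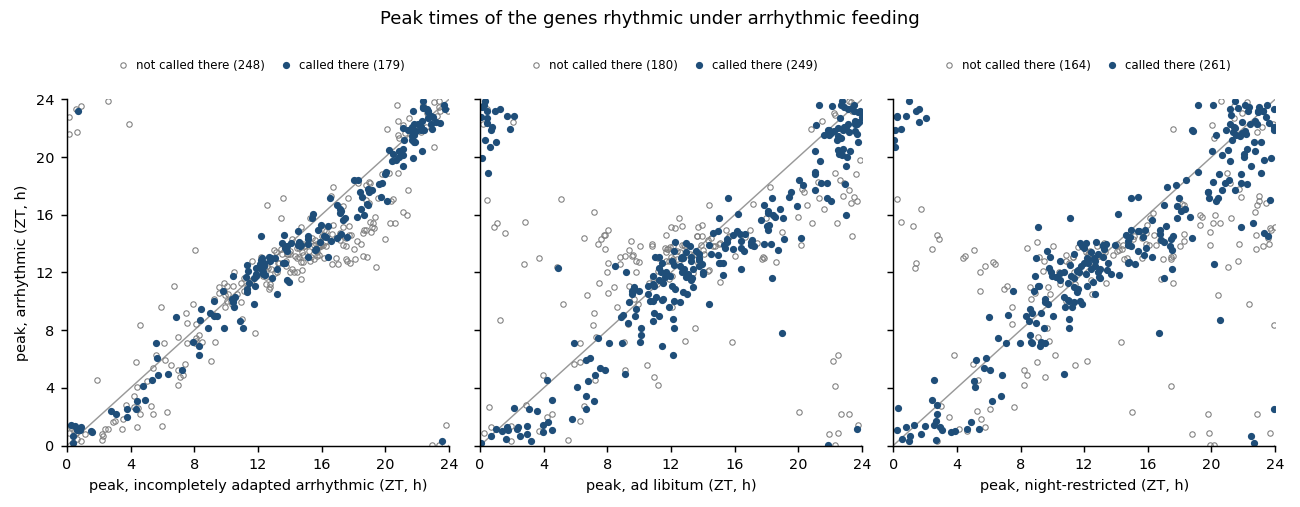
Fitted peak of each gene called under arrhythmic feeding (y axes, zeitgeber time in hours) against its fitted peak in the incompletely adapted, ad libitum and night-restricted libraries (x axes, same unit), filled where the gene was also called there, with the line of equal times. Times wrap at 24 h, so points in a corner are close in time. The left panel is tightest, with 94.4% of genes within 4 h, against 81.6% and 79.8% in the other panels.

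Whether a rhythm differed was tested in 1 edgeR fit to all 72 libraries, which compares the cosine and sine terms of the paradigms and adjusts over 12712 genes. The 3 contrasts share the arrhythmic libraries. Of the 429 genes, 0 differed from incompletely adapted feeding (background 0.0%; 26 with an unadjusted p under 0.05, against 2.44% of all genes; smallest adjusted p 0.942), which does not show that the rhythms were alike. Against ad libitum feeding 2 differed (background 0.0236%; 136 at an unadjusted p under 0.05, against 9.05% of all genes), and against night-restricted feeding 65 (15.2%; background 3.89%; 178 unadjusted, against 25.9%). Of those 65 genes, 47 had a smaller range under arrhythmic feeding and 18 a larger one, 35 had peaks over 4 h apart, and 55 were called rhythmic in both paradigms by this fit. The arrhythmic values that chose the 429 genes also enter these contrasts. Shares above the background and the split of ranges are therefore descriptions only. Without night-restricted ZT02 replicate 1 the count was 42, and without night-restricted ZT18 replicate 1 it was 99. The GC slopes of these libraries were 0.543 and 0.399, where arrhythmic libraries ran from -0.293 to 0.289. Their median r with the other night-restricted libraries was 0.854 and 0.900. With the GC slope of each library as a covariate, the count from all 72 libraries was 63. Without libraries of extreme GC slope, an alternative chosen after seeing the data, it was 59. Whether these properties gave the counts of 42 and 99 was not tested.

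Among core clock genes Arntl, Clock, Npas2, Nr1d1, Nr1d2, Per1, Per3, Ciart, Bhlhe41, Dbp, Tef and Nfil3 were called under arrhythmic feeding with no called difference from night-restricted feeding, which does not show equal rhythms. Arntl had ranges of 3.35 ± 0.75 and 4.93 ± 0.86 in these paradigms with peaks at ZT21.5 and ZT21.6 (adjusted p of the difference = 0.559), and Dbp 4.79 ± 0.47 and 5.45 ± 0.49 with peaks at ZT8.15 and ZT9.42 (adjusted p = 0.17). Those of Per1 were 3.35 ± 0.49 and 3.22 ± 0.50, at ZT11.9 and ZT12.1 (adjusted p = 0.974). A difference was called for Per2, Cry1, Hlf and Bhlhe40. Per2 had a range of 2.38 ± 0.41 and a peak at ZT11.8 under arrhythmic feeding and 4.23 ± 0.42 at ZT14.2 under night-restricted feeding (adjusted p = 0.0107; 0.0532 without ZT06 replicate 1 of the arrhythmic libraries). Cry1 peaked at ZT17.6 and ZT19.8 with ranges of 2.57 ± 0.27 and 3.30 ± 0.28 (adjusted p = 0.00903). Hlf had ranges of 0.59 ± 0.14 and 1.35 ± 0.14 (adjusted p = 0.0146). Bhlhe40 was 0.0463 by adjusted p and missed the threshold in 22 of 36 fits that leave out a library of either paradigm (up to 0.102, without night-restricted ZT02 replicate 1), and its adjusted p was 0.235 once the GC slope was a covariate.

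The 6 called genes of smallest p against night-restricted feeding were Mid1ip1, Insig1, Ppp1r3b, Acacb, Pmvk and Fbxo21, and all but Fbxo21 act in lipid, sterol or glycogen metabolism. Mid1ip1 peaked in daytime under arrhythmic feeding, at 184 ± 47.6 CPM (SD, n = 3) at ZT06, where night-restricted libraries held 32.0 ± 20.5 CPM. At ZT14 the order was reversed, with 105 ± 20.4 and 217 ± 31.5 CPM. Its ranges were 0.93 ± 0.30 and 2.79 ± 0.30, at ZT7.89 and ZT16.7 (adjusted p = 1.64e-06). The arrhythmic rhythm of Mid1ip1 was called in the fit of the 18 libraries (adjusted p = 0.0146) but not in this fit of 72 (0.154). Insig1, a sterol-regulated anchor of SCAP, peaked at ZT8.76 with a range of 0.75 ± 0.16 and, under night-restricted feeding, at ZT20.7 with 1.10 ± 0.16, so the crest moved from day to night (adjusted p = 2.93e-06). In the arrhythmic fit its own rhythm had an adjusted p of 0.0197 and missed the threshold without ZT22 replicate 2 (adjusted p 0.0586) and without the libraries of extreme GC slope (0.103). With the GC slope as a covariate that rhythm was called (adjusted p 0.00825).

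Ppp1r3b, which directs protein phosphatase 1 to glycogen, had the smaller range under arrhythmic feeding. At ZT06 it read 1071 ± 354 CPM under arrhythmic and 176 ± 82.6 CPM under night-restricted feeding, and at ZT18 1312 ± 129 and 1821 ± 369 CPM. Its ranges were 0.98 ± 0.30 and 3.40 ± 0.30 (adjusted p = 9.68e-05), and its arrhythmic call (adjusted p = 0.0252) was lost in 5 of 18 leave-out fits (up to 0.0881, without ZT14 replicate 2) and in the fit of 72 libraries (0.137). For Acacb and Pmvk the peak moved from early night, at ZT14.5 and ZT14.7, to ZT23.6 and ZT23.4 under night-restricted feeding (adjusted p = 0.00176 and 0.00238). Their ranges were 1.27 ± 0.31 and 1.21 ± 0.35 under arrhythmic and 1.42 ± 0.31 and 1.92 ± 0.35 under night-restricted feeding, and in this fit the arrhythmic rhythm of Pmvk was not called (adjusted p = 0.0808). Fbxo21, an F-box protein, had ranges of 1.12 ± 0.27 and 2.57 ± 0.27 (adjusted p = 0.00382), with its arrhythmic call (adjusted p = 0.0406) lost in 11 of 18 leave-out fits (up to 0.106, without ZT14 replicate 2).

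Against ad libitum feeding the 2 genes were Lgalsl and Ppp1r3b. Lgalsl peaked at ZT19.9 under arrhythmic and ZT23.1 under ad libitum feeding with ranges of 1.57 ± 0.21 and 2.27 ± 0.21 (adjusted p = 0.0327), and Ppp1r3b had ranges of 0.98 ± 0.30 and 2.27 ± 0.30 at ZT14.4 and ZT20.1 (adjusted p = 0.0327). The count lay between 0 and 3 when 1 library was left out. The call of Lgalsl was lost in 12 of 36 fits without 1 library (up to 0.107, without ad libitum ZT02 replicate 3) and that of Ppp1r3b in 16 (up to 0.117, without ad libitum ZT10 replicate 3).

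**Figure D5:**
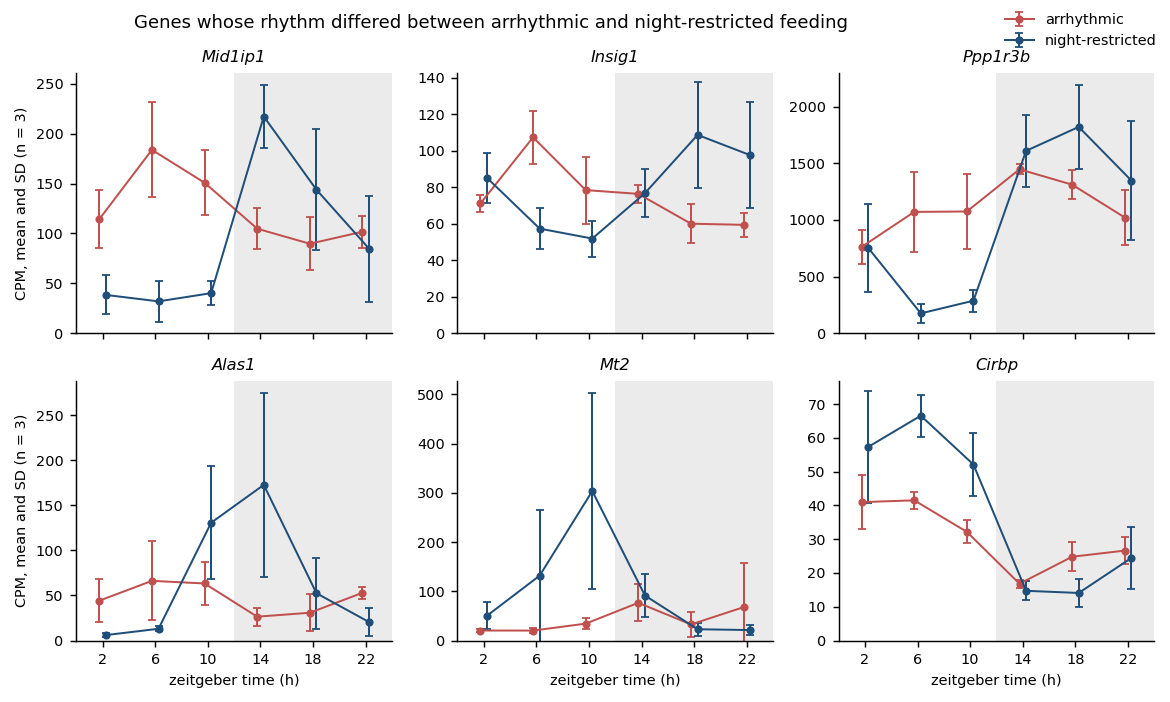
CPM (y axes, mean and SD of 3 libraries) against zeitgeber time in hours (x axes, dark phase shaded) under arrhythmic (red) and night-restricted (blue) feeding for 6 genes whose rhythm differed. Mid1ip1 and Insig1 crest in daytime in red and at night in blue, Ppp1r3b and Cirbp swing less in red, and Alas1 and Mt2 have their large swing in blue.

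The reverse case was taken from genes with the largest ranges under night-restricted feeding that had an unadjusted p over 0.05 here: Alas1, Mt2, Ces1d, Gm15542, Snord13 and Alpl. The values of both paradigms chose these genes, so a smaller arrhythmic range is favoured by the choice and is a description only. Their difference p-values use the same values and are no separate support. Alas1, which sets the pace of heme synthesis, read 28.5, 55.8 and 114 CPM at ZT06 and 17.4, 24.8 and 37.1 CPM at ZT14 under arrhythmic feeding, groups that overlapped (range 0.97 ± 0.45, adjusted p = 0.413), and had a range of 4.68 ± 0.58 under night-restricted feeding (adjusted p of the difference = 0.000688). Mt2, a metallothionein, had arrhythmic and night-restricted ranges of 1.88 ± 0.68 and 3.70 ± 0.67 with peaks at ZT16.6 and ZT8.98 (adjusted p of the difference = 0.00903). It rests on ZT22 replicate 1: without that arrhythmic library the arrhythmic rhythm itself was called (adjusted p 0.0138) and the difference was not (0.0542). Alpl, an alkaline phosphatase, and the small nucleolar RNA Snord13 also differed (adjusted p = 0.0278 and 0.0243), and lost that call in 5 and 4 of 36 leave-out fits (up to 0.0922 without night-restricted ZT14 replicate 3, and 0.0569 without night-restricted ZT02 replicate 1). With the GC slope as a covariate neither difference was called (0.138 and 0.166). For Ces1d, a carboxylesterase, and Gm15542 the difference was not called (adjusted p = 0.216 and 0.0889).

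The spread between libraries of a time was compared because it sets which rhythms can be called. Per time it was the SD of log2 CPM of the 3 libraries, taken at the median gene. Averaged over the 6 times it was 0.278 under arrhythmic feeding and 0.300, 0.278 and 0.361 under incompletely adapted, ad libitum and night-restricted feeding. None of these differences passed an exact two-sided sign-flip permutation test over the 6 times (p = 0.688, 1 and 0.125, and 1, 1 and 0.375 adjusted over the 3), for which the smallest possible p is 0.03125. Arrhythmic libraries had the lower spread at 3, 3 and 4 of the 6 times.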

How the data were processed

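Liver 3′ mRNA was measured in 72 libraries, of which the 18 arrhythmic ones are described here. Per the labels' protocols, TRIzol was used for extraction and the Lexogen QuantSeq kit for the libraries. The submitters' processing notes list 2 builds, GRCm38.p5 and mm10, beside STAR (version 2.4.2a). The counting program, its strand setting and its gene annotation are not given in the sources at hand. Raw read counts were deposited by the authors for 51912 Ensembl genes, the unit analysed here. Their second table held the same counts as CPM to within 5.09e-11 and was not used. Symbols were matched for 51719 genes, and the rest held 0.00309% of counts. Columns were assigned by title, and 0 columns were left unassigned.

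Counts were filtered (filterByExpr over the 6 times), scaled by TMM and fitted with edgeR 4.0.16 (robust quasi-likelihood) in R 4.3.3 with 24 h cosine and sine terms. Adjusted p-values are Benjamini-Hochberg over all genes tested, called under 0.05, and errors of ranges and peaks come from the delta method. Rhythm differences came from 1 fit to all 72 libraries, which tested 12712 genes. Levels are CPM. The steps were tested on simulated counts. Alternatives were other scaling (RLE), other filters, a GC covariate, DESeq2 1.42.0, limma 3.58.1, other time models, a replicate block and leaving out libraries. Leaving out libraries of extreme GC slope was added after seeing the data.

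Replicate numbers are shared between times in the labels. Deviations of same-numbered libraries from their time means correlated at -0.585 to 0.789 over 45 pairs, with 27 over 0.1 and a median of 0.198 (-0.0827 over 90 pairs of different numbers). Since not every pair was over 0.1, the libraries were not treated as paired. This rule does not show that the replicate number had no effect, and a fit with that number as a block is given below.

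Members and lists were chosen with earlier results of these data known. Named genes were the tested clock activators, repressors and D-box factors, the 10 called genes of smallest p with at least 10 CPM in each phase, up to 4 called members of smallest p of each list, the 6 called genes of smallest p against night-restricted feeding, and the 6 genes of largest range under night-restricted feeding with an unadjusted p over 0.05 here, 92 genes in all. Some of these and some list members are not reported here by name. Promoter windows are from RefSeq (GRCm38.p6).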

Additional observations from a re-analysis of the deposited data

Results flagged for a closer look

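Under arrhythmic feeding the rhythms of 65 called genes differed from night-restricted and of 2 from ad libitum feeding by the test of the difference itself. Over all named genes, differences of smallest p were those of Mid1ip1 (adjusted p 1.64e-06), Insig1 (2.93e-06), Ppp1r3b (9.68e-05), Alas1 (0.000688, not itself called rhythmic under arrhythmic feeding), Acacb (0.00176), Pmvk (0.00238), Fbxo21 (0.00382) and Hsd17b7 (0.00431) against night-restricted feeding. Against ad libitum feeding Lgalsl and Ppp1r3b both had an adjusted p of 0.0327.

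Further differences from night-restricted feeding were found for the clock genes and outputs Lgalsl (0.005), Cry1 (0.00903), Per2 (0.0107), Hlf (0.0146) and Bhlhe40 (0.0463). Metabolic genes among them were Thrsp (0.00973), Ahcy (0.00996), Foxo1 (0.0122) and Ass1 (0.0138). Those of Ahcy, Foxo1 and Ass1 were not called without libraries of extreme GC slope (0.0717, 0.0713 and 0.0582), but were with the GC slope as a covariate. Stress, chaperone and RNA-binding genes were Mt2 (0.00903), Srsf3 (0.00935), Cirbp (0.0113), Hyou1 (0.013) and Trib3 (0.0162), and the rest were Snord13 (0.0243), Alpl (0.0278), Tubb2a (0.0372) and Dtx4 (0.0454). Of these, Hyou1 peaked at ZT4.12 under arrhythmic and ZT17.5 under night-restricted feeding (its arrhythmic rhythm was not called in this fit of 72 libraries, adjusted p 0.315), and Srsf3 at ZT7.28 and ZT14.2. Cirbp had the smaller range under arrhythmic feeding, 0.96 ± 0.25 against 2.59 ± 0.25. The ranges of Thrsp were 3.05 ± 0.49 under arrhythmic and 2.35 ± 0.49 under night-restricted feeding. Since the test takes range and peak time together, its call for Thrsp does not show that the range differed. Dtx4 missed the threshold in 24 of 36 fits that leave out a library of either paradigm (adjusted p up to 0.135, without night-restricted ZT02 replicate 1; 0.365 with the GC covariate), Tubb2a in 16 (up to 0.0797, without arrhythmic ZT06 replicate 2) and Trib3 in 2 (up to 0.0511, without arrhythmic ZT18 replicate 1). All p-values are from edgeR with Benjamini-Hochberg adjustment over all genes tested, with 3 libraries per time.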

How the results depend on the processing

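Under arrhythmic feeding the count of 429 rhythmic genes became 653 with the GC slope as covariate, 753 by DESeq2, 159 by a test of any difference among times, 197 at an adjusted p under 0.01, 274 with a range of at least 1, and 132, 111 and 139 without replicates 1, 2 and 3. It lay between 285 and 505 when 1 library was left out. The dark-phase share of 64.8% was 58.2% with at least 10 CPM, 57.1% with the GC covariate, 71.2% without replicate 3, and 62.1% to 66.6% without 1 library. Of the arrhythmic genes, 375 were called in the incompletely adapted libraries with the GC covariate, 313 by DESeq2, 30, 21 and 72 without replicates 1, 2 and 3, and 145 to 228 without 1 library. Rhythm differences from night-restricted feeding numbered 43 with no filter, 63 with the GC covariate and 46 in a fit to 36 libraries. They numbered 42 to 99 without 1 library. Those from ad libitum feeding numbered 0 with no filter, 16 with the GC covariate and 9 in a fit to 36 libraries. They numbered 0 to 3 without 1 library. Without libraries of extreme GC slope (an alternative chosen after seeing the data) the 2 counts were 59 and 5. The 12 h terms and the differences from incompletely adapted feeding stayed at 0 without any 1 library. Spread differences changed sign without a replicate: against incompletely adapted feeding they ran from -0.0642 (without replicate 2) to 0.0183 (without 3), against ad libitum feeding from -0.0224 (without 1) through 0.00386 (without 2) to 0.0105 (without 3), and against night-restricted feeding from -0.13 (without 2, exact p = 0.03125) to 0.0145 (without 1). The cause of these changes was not tested.

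With the replicate number as a block 439 genes were called, 399 of them among the 429, and 12 of 18 libraries correlated best with their own number. Of the named genes Ddit4 and Cyp1a2 were not called under the block (adjusted p 0.0548 and 0.0561), and it changed no other call of a named gene and 0 of 28 rhythm differences. The 83 called named genes kept their direction in every alternative fit that tested them. Of these genes 70 were called in every fit without 1 library and 35 in every such alternative. A gene removed by a filter was not counted as lost. The test of any difference among times and the stricter thresholds were left out of this tally. Of 28 rhythm differences of named genes, 18 stayed past the threshold in every fit without 1 library. In every alternative run for the differences 14 did, and 0 reversed. DESeq2, limma, other time models and fits without a whole replicate number were not run for the differences. Of the 28, 8 were lost with no filter, 4 with the GC covariate, 6 in the fit to 36 libraries and 8 without libraries of extreme GC slope. The share of genes called was lowest under 10 CPM (2.14%), where the median SE of the range was 0.327.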

Other observations

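Of the 429 genes called under arrhythmic feeding, 37 had no unadjusted p under 0.05 in any other paradigm. The 5 of smallest p, named after their values were seen, were Dvl2, a scaffold of Wnt signalling (range 0.91 ± 0.14, peak ZT17.3, edgeR adjusted p = 0.00162), Hs6st1, a heparan sulfate sulfotransferase (0.72 ± 0.12, ZT12.1, 0.00251), Thrap3 (1.82 ± 0.29, ZT2.74, 0.0031), Gpd2, the mitochondrial glycerol 3-phosphate dehydrogenase (1.10 ± 0.18, ZT5.89, 0.00313), and Slc36a1, an amino acid transporter (1.30 ± 0.22, ZT2.19, 0.00413). A p above 0.05 elsewhere does not show that these genes lacked a rhythm there. The test of the rhythm difference called 0 of the 37 against incompletely adapted and ad libitum feeding and 3 against night-restricted feeding: Il34, Rgs3 and Txn2.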
